A study of Mus musculus with 21 samples.

Results

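The nuclear-encoded subunits of the mitochondrial respiratory chain were taken by gene symbol: names that start with Ndufa, Ndufb, Ndufc, Ndufs or Ndufv and a digit, with Uqcr, with Cox and a digit from 4 to 8, or with Atp5, together with Sdha, Sdhb, Sdhc and Sdhd, without symbols that end in the pseudogene suffix -ps. The rule matched 86 of 34236 symbols and used no measured value. By the prefix of the symbol alone, it placed 37 genes under complex I, 4 under complex II, 8 under complex III, 19 under complex IV and 18 under complex V. The prefix does not always name the complex of the protein, as for Ndufa4 and its paralog Ndufa4l2, which are counted here under complex I. Among the matched symbols, 4 do not name a chain subunit: Cox4nb is the older name of Emc8, a part of the ER membrane complex, Atp5sl is an older name of Dmac2, an assembly factor of complex I, and Atp5s is now called Dmac2l, a factor coupled to ATP synthase. Atp5l2, which the count table lists without the suffix, is annotated as the processed pseudogene Atp5l2-ps.

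RNA was sequenced from macrophages that had been flow sorted from kidneys of male C57BL/6J mice aged 24 weeks, with a flow sort time of 5 hours. The sort gave CD11cHI and CD11cLO macrophages, labelled monocyte-derived, and kidney-resident macrophages (KRM), each from Sham-operated kidneys and from kidneys with renal artery stenosis (RAS). The libraries numbered 3 of CD11cHI Sham, 4 of CD11cHI RAS, 3 of CD11cLO Sham, 4 of CD11cLO RAS, 4 of KRM Sham and 3 of KRM RAS, 21 in all. How many mice stood behind each library was not established here, so that the spread between libraries may be partly technical.

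The respiratory chain passes electrons from NADH through complex I, or from succinate through complex II, to complex III and, by way of cytochrome c, to complex IV, which reduces oxygen. Complexes I, III and IV pump protons across the inner mitochondrial membrane, and complex V, the ATP synthase, uses the gradient to make ATP. Most subunits are encoded in the nucleus and a few in mitochondrial DNA (mtDNA), and renal tubule cells are known for a very high content of mitochondria, while macrophages shift between oxidative and glycolytic metabolism with their state.

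Library totals ranged from 6891137 to 18592376 counts, so counting error was small for all members but the rarest. Levels are given below as CPM, counts relative to the library total, scaled by TMM factors over the 21 libraries. The 11 macrophage markers were counted in every library, with a summed level from 6616 to 51205 CPM. The lowest sum was that of CD11cHI Sham 3, which also held 24697 CPM of 14 proximal tubule markers and 1942 CPM of 12 distal nephron markers, against 554 and 702 CPM and 10.9 and 18 CPM in the other CD11cHI Sham libraries. CD11cLO Sham 3 and KRM Sham 3 held 8095 and 4168 CPM of the proximal tubule markers. KRM RAS 2 and KRM RAS 3 held 5751 and 4345 CPM of the distal nephron markers, where KRM RAS 1 held 141 CPM. The column of KRM RAS 1 did not correspond between the deposited count table and the deposited log2 table (Spearman rho 0.688 over shared symbols, against 0.892 for the KRM Sham 4 column), and it was left out of every level taken from the latter. By smaller margins, the counts of KRM Sham 1 were closer to the log2 column of KRM Sham 4 than to their own (0.945 against 0.933), and those of KRM RAS 2 to that of KRM RAS 3 (0.913 against 0.909). These columns were used as labelled in both tables, and the other 18 libraries were closest to their own. Which of the columns belongs to the label was not settled, so that the count column of KRM RAS 1 is in doubt as well. The main counts of members by edgeR in comparisons with KRM RAS are also given without it. In bulk RNA, fewer cells of a type and less RNA per cell cannot be told apart.

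To rank the genes against each other, levels per transcript length were taken from the log2 table, which holds log2(TPM + 1), over 20 libraries. It listed 78 members, and their median level was 7.51, where the median of all 14020 symbols in that table was 3.63. The highest member was Atp5b, the catalytic beta subunit of ATP synthase, at 9.51 ± 0.54 (SD, n = 20). It was followed by 3 subunits of cytochrome c oxidase within less than their spread, Cox8a at 9.28 ± 0.53, Cox6a1 at 9.26 ± 0.50 and Cox4i1 at 9.25 ± 0.48. Complexes IV and V had the highest medians on this scale, 8.33 over 13 genes and 8.13 over 17 genes, and complex I had the lowest, 6.99 over 36 genes, with complex II at 7.47 and complex III at 7.97. The lowest listed members were Cox7a1, an isoform of heart and skeletal muscle, at 2.70 ± 1.29, Atp5s at 3.02 ± 0.44 and Cox6b2, a testis isoform, at 3.44 ± 1.13.

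Apart from Cox7a1 and Cox6b2, with 413 and 627 counts over all libraries, the tissue-restricted isoforms were near the limit of detection. Cox7b2 and Cox8c had 0 counts in all 21 libraries, which allows up to 3 counts in each. Over all libraries Cox8b had 14 counts, Cox4i2 had 24, Cox6a2 had 61 and Ndufa4l2 had 92, and the pseudogene Atp5l2 had 11. The highest value of Cox7a1, 14.5 CPM, was in CD11cHI Sham 3. The 7 genes at 0 or near it did not pass the filter on low counts in the comparisons of all libraries of their groups below, with the exception of Ndufa4l2 in 1 of the 3 comparisons of responses. Ndufa4l2 also passed in the comparisons with KRM RAS once KRM RAS 1 was left out, which gave 80 members there. For complex IV the ubiquitous counterparts carried the counts: Cox4i1 lay between 155 and 885 CPM, Cox6a1 between 106 and 710 CPM and Cox8a between 104 and 609 CPM. For Cox4i2, the isoform linked to hypoxia and to lung, 0.829 and 0.869 CPM in KRM RAS 2 and 3 were its highest values. Ndufa4l2, induced by hypoxia and abundant in pericytes, was at 2.67 and 2.80 CPM in the same libraries, at 2.44 CPM in CD11cHI Sham 3 and at most 0.447 CPM elsewhere. KRM RAS 2 and 3 also held the highest sums of 8 stromal markers, 523 and 585 CPM, against 44.8 CPM in KRM RAS 1, and the part of stromal cells in these isoforms was not tested.

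Summed over the 86 genes, the chain took 8291, 6742 and 26452 CPM in CD11cHI Sham and 7438, 14324, 11460 and 10851 CPM in CD11cHI RAS. CD11cLO Sham held 9834, 9121 and 10560 CPM, and CD11cLO RAS held 7737, 8487, 7236 and 7181 CPM. The sums were 6761, 5167, 6840 and 5121 CPM in KRM Sham and 6251, 12418 and 9729 CPM in KRM RAS. Every KRM Sham library lay below every CD11cLO Sham library, and every CD11cLO RAS library lay below every CD11cLO Sham library. CD11cHI Sham was split by its library 3, at 3.52 times the mean of the other libraries of that group, and KRM RAS by its library 1, at 0.564 times the mean of the other KRM RAS libraries.

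**Figure D1:**
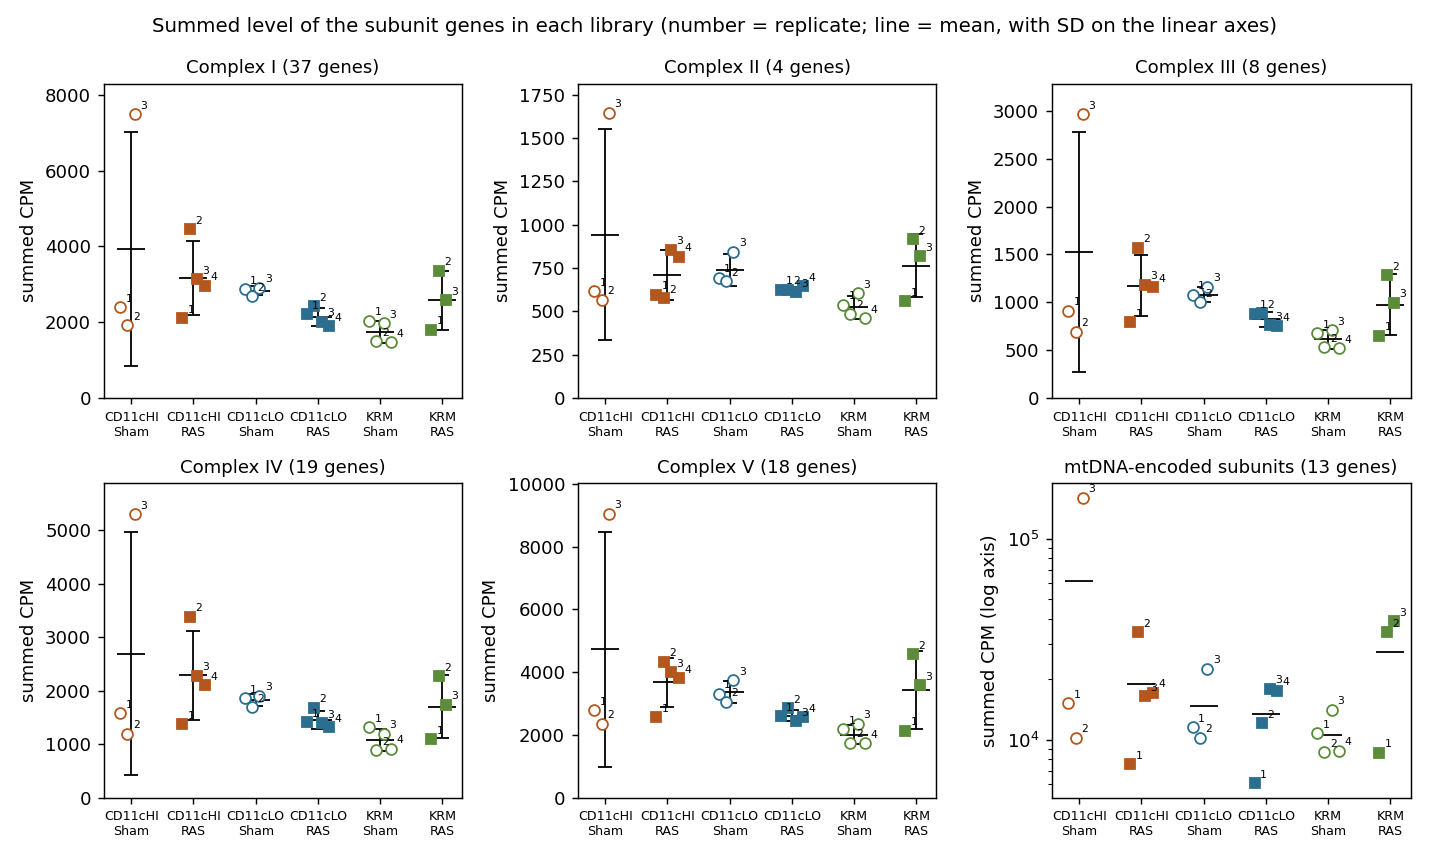
Summed CPM of the genes of each complex and of the 13 mtDNA-encoded subunits in the 21 libraries, by population and operation. Each point is 1 library with its replicate number, open circles are Sham and filled squares are RAS, and the horizontal line is the mean, with its SD on the linear axes. In all 5 complexes KRM Sham lay below CD11cLO Sham, and CD11cHI Sham 3 and KRM RAS 2 and 3 stood above the other libraries of their groups.

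The complexes followed each other closely, with CD11cHI RAS 2 as an exception. That library exceeded the mean of the other CD11cHI RAS libraries 1.62 times for complex I, 1.51 times for complex III, 1.76 times for complex IV and 1.26 times for complex V, but it stood at 0.763 times that mean for complex II. Sdha, the flavoprotein of complex II, was at 279, 162, 388 and 403 CPM in the 4 CD11cHI RAS libraries, and Ndufs1, the large iron-sulfur subunit of complex I, was at 69.1, 40.2, 77.1 and 71.8 CPM. Both were thus lowest in library 2, while Ndufa1, an accessory subunit of complex I, was highest there, with 64.1, 178, 110 and 107 CPM. The 95 cytosolic ribosomal protein genes were also highest in this library, at 36725 CPM against 12575 to 25685 CPM. Over 78 members, the Spearman rho between merged exon length and the ratio of library 2 to the other 3 was -0.31, given as a description, as these genes share their libraries, and the part of transcript length in the pattern was not tested. Members are short, with a median merged exon length of 1550 bases where 11993 symbols of at least 1 CPM had a median of 4332 bases.

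Gene by gene, the members moved together across the libraries. For the 79 members with a mean of at least 1 CPM, log2(CPM + 1) was correlated with the mean of the other members over the 21 libraries, which share the groups, the tubule marker content and the scaling. Pearson's r had a median of 0.95 and reached 0.8 or more for 70 members. It was under 0.5 for 3 genes only, each a symbol that does not name a chain subunit: Atp5sl at -0.04, Cox4nb at -0.03 and Atp5s at 0.11. The lowest true subunits were Ndufs1 and Ndufc2, an accessory subunit of complex I, each at 0.55, Sdha at 0.56 and Cox6b2 at 0.56.

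**Figure D2:**
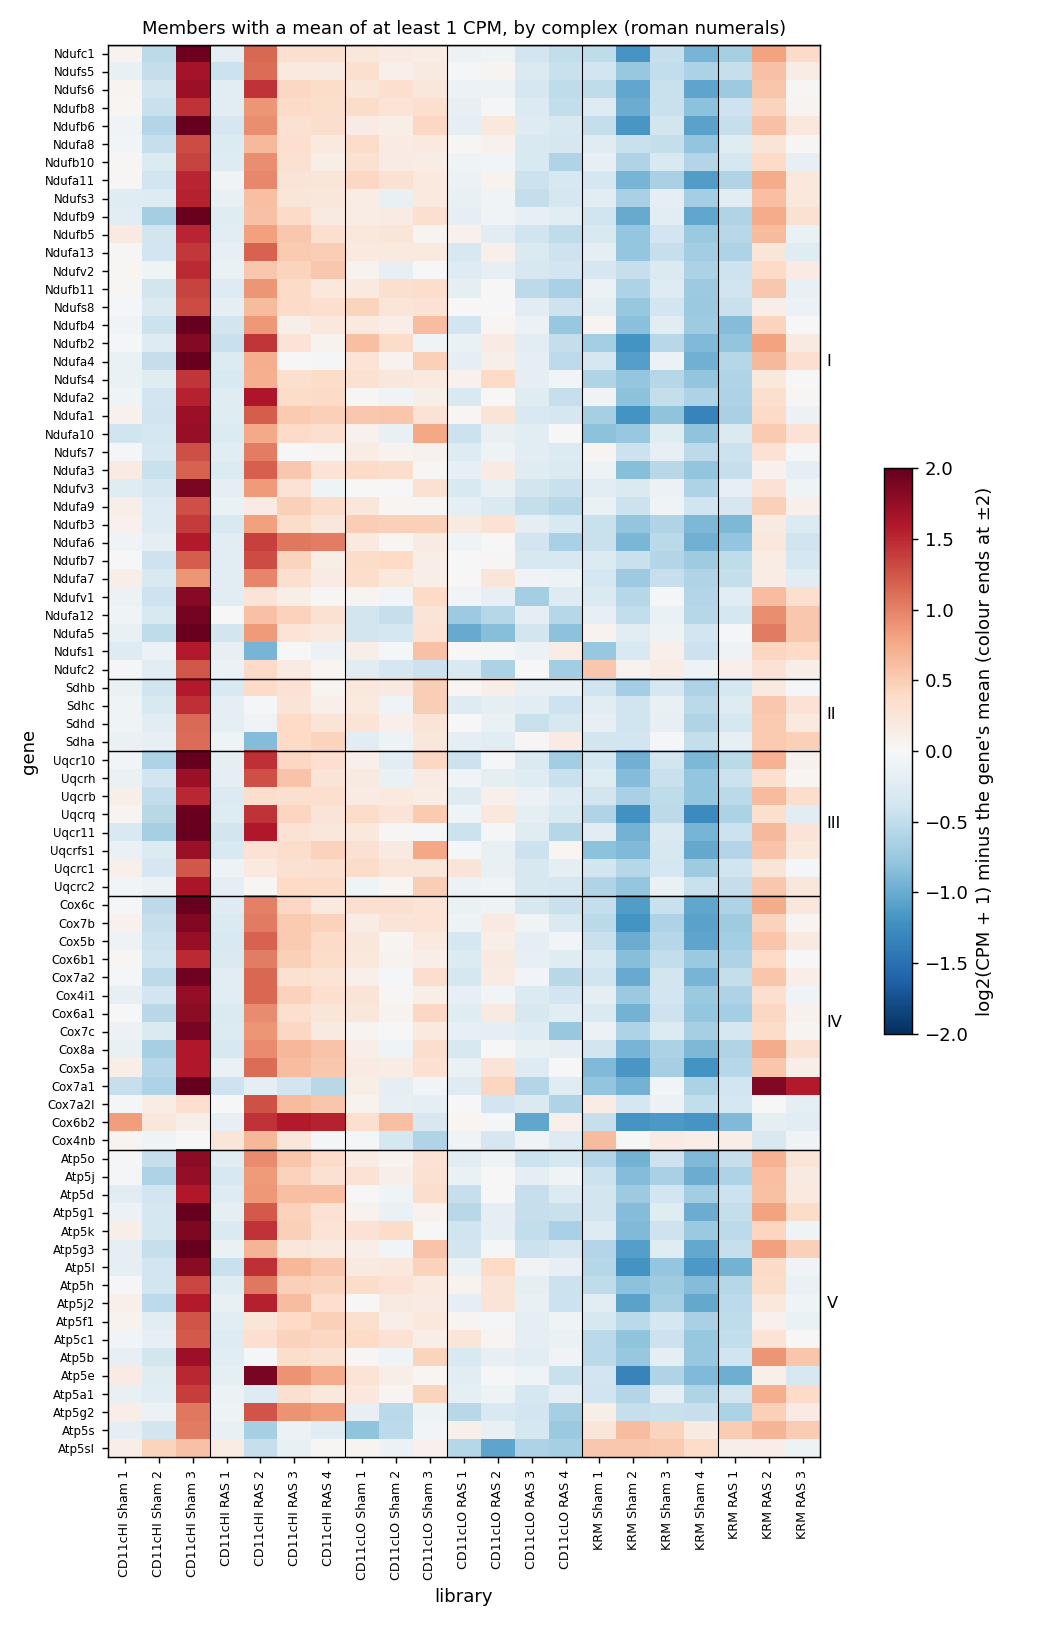
Log2(CPM + 1) of each of 78 members minus the mean of that gene over the 21 libraries, with genes in rows by complex and libraries in columns by group. Red is above and blue below the gene's mean, with the colour ending at 2 log2 units. Most rows share a pattern, red in CD11cHI Sham 3 and blue in KRM Sham, and the rows of Atp5s, Atp5sl and Cox4nb depart from it.

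As the subunits varied together, their promoters were searched for letters bound by factors known for respiratory genes. Sequences of 250 bases before an annotated start were found for 69 of the 86 members in the RefSeq table of GRCm38.p6, 75 windows in all, and 32851 windows for all genes. The NRF1 letters, GCGCA and GCGC with any base between them, read on both strands, were in 18.7% of the member windows and in 3.74% of all windows. The ETS letters CCGGAAG were in 16% and 6.91%, and the YY1 letters AAGATGGC in 2.67% and 1.56%. The TATA box TATAAA was in 9.33% and 12.4%. The windows of members had a median GC content of 56%, against 52.4% for all windows, and a match is no evidence of binding. To show such windows, 3 that lie outside the annotated gene are given 5′ to 3′ with ETS, NRF1 and YY1 letters in capitals: Atp5l, the g subunit of ATP synthase, at chr9:44920743-44920992 on the minus strand, Sdhd, a membrane anchor of complex II, at chr9:50603850-50604099 on the minus strand, and Atp5sl at chr7:25619164-25619413 on the plus strand.
Atp5l: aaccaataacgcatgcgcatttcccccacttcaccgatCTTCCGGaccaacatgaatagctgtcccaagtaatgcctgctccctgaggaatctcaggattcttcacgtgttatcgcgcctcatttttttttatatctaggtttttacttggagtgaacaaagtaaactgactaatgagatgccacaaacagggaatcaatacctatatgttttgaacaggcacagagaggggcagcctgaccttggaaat
Sdhd: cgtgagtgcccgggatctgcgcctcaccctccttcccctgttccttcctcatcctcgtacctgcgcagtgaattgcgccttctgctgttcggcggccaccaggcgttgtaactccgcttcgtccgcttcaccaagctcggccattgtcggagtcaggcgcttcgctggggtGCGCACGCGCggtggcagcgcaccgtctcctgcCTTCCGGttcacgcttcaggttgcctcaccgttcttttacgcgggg
Atp5sl: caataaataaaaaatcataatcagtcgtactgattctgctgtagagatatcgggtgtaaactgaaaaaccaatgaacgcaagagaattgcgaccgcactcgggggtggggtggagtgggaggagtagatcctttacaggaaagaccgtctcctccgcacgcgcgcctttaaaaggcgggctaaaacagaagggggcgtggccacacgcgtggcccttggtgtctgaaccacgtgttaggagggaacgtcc
The window of Atp5l held an ETS match, that of Sdhd an NRF1 and an ETS match, and that of Atp5sl none of these letters. A second window of Atp5sl, which overlaps the annotated gene and is not shown, held a YY1 match, so that no contrast is drawn between these genes.

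Subunit levels of KRM were first compared with those of CD11cLO macrophages in Sham kidneys, which asks how the resident and the monocyte-derived population differ at rest. Most of the chain was lower in KRM. Of 79 members tested with edgeR's quasi-likelihood test, 60 were lower and 3 were higher in KRM at an adjusted p under 0.05, with a median log2 fold change of -0.76, where the median of all 12399 genes tested was -0.04. Over all genes, 22.3% were called lower and 19.5% higher. In 67 members every KRM Sham library lay below every CD11cLO Sham library, and in 4 above, against 25.6% and 23.7% of all genes. The summed level was 0.607 times that of CD11cLO Sham.

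All 5 complexes took part. In complex I, 25 of 36 tested genes were lower and 1 was higher. Ndufa1 had the largest difference, with 47.8, 32.7, 43.4 and 29.7 CPM in KRM Sham and 111, 112 and 93.5 CPM in CD11cLO Sham. The log2 fold change was -1.44 ± 0.19 (SE), with an adjusted p of 0.000603 by edgeR, and the groups lay far apart. Ndufb3, another accessory subunit, differed by -1.16 ± 0.14 (adjusted p = 0.000329 by edgeR). Of the core subunits, Ndufv1, which binds NADH, at -0.48 ± 0.17 (adjusted p = 0.0557 by edgeR) and Ndufs1 at -0.54 ± 0.215 (adjusted p = 0.0761 by edgeR) did not pass. Ndufa5 and Ndufa12 had log2 fold changes of -0.01 and -0.14.

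In complex II, 3 of 4 genes were lower in KRM, led by the iron-sulfur subunit Sdhb, with 123, 101, 129 and 106 CPM in KRM Sham and 189, 184 and 230 CPM in CD11cLO Sham. Its log2 fold change was -0.78 ± 0.125 (SE, adjusted p = 0.00163 by edgeR), and the groups did not overlap. Sdhc and Sdhd differed by -0.51 and -0.52. Sdha did not pass (-0.26, adjusted p = 0.19 by edgeR). In complex III, 7 of 8 genes were lower. The Rieske protein Uqcrfs1 was at 62.2, 59.5, 88.5 and 53.9 CPM in KRM Sham and at 137, 125 and 190 CPM in CD11cLO Sham, lower by -1.16 ± 0.20 log2 units in KRM (adjusted p = 0.00235 by edgeR). Uqcrq, a small subunit, differed by -1.24 ± 0.21, and the core proteins Uqcrc1 and Uqcrc2 by -0.76 and -0.61.

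In complex IV, 11 of 14 tested genes were lower. Cox5a, a subunit found in every cell, was at 71.4, 58.3, 83.4 and 57.2 CPM in KRM Sham and at 149, 147 and 164 CPM in CD11cLO Sham, with no overlap (log2 fold change -1.16 ± 0.15, adjusted p = 0.000545 by edgeR). Cox6c, Cox7b and Cox5b differed by -1.03, -1.04 and -0.89. The regulatory subunit Cox4i1 was lower by -0.62 ± 0.17 (adjusted p = 0.0191 by edgeR). Cox6b2 had the largest fold of all members, -1.93 ± 0.55 (adjusted p = 0.0228 by edgeR), but at low counts: 1.66, 0.617, 0.653 and 0.607 CPM in KRM Sham against 3.60, 4.58 and 1.93 CPM in CD11cLO Sham. Cox7a2l, which links complexes III and IV in supercomplexes, was at 78.3, 55.6, 65.1 and 49.9 CPM in KRM Sham and 74.6, 63.1 and 62.5 CPM in CD11cLO Sham. These groups overlapped, and the log2 fold change was -0.08 ± 0.18 (adjusted p = 0.74 by edgeR).

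In complex V, 14 of 17 tested genes were lower and 2 were higher. The alpha and beta subunits of the catalytic head, Atp5a1 and Atp5b, differed by -0.65 and -0.67, the gamma subunit Atp5c1 by -0.89 and the stalk protein Atp5o by -0.85. Atp5l was at 66.7, 42.7, 57.8 and 44.3 CPM in KRM Sham and at 112, 115 and 136 CPM in CD11cLO Sham, so that the groups were apart, and its log2 fold change was -1.17 ± 0.17 (SE, adjusted p = 0.00104 by edgeR). The paralogs Atp5g1, Atp5g2 and Atp5g3 encode the same mature c subunit and share sequence, so that their counts are uncertain. Of these, Atp5g3 was lower by -0.91 and Atp5g1 by -0.58 (adjusted p = 0.014 and 0.049 by edgeR), and Atp5g2 was at -0.01, with 70.6 CPM in KRM Sham 1 and 47.1 to 48 CPM in the others.

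The 3 genes higher in KRM were Ndufc2 and the non-subunits Atp5s and Atp5sl. Atp5sl was at 38.6, 38.7, 38.4 and 34.4 CPM in KRM Sham and at 27.4, 24.2 and 28.1 CPM in CD11cLO Sham. KRM lay above in every library, by 0.52 ± 0.13 log2 units (adjusted p = 0.0125 by edgeR). Atp5s was higher by 0.98 ± 0.29 at 3.29 to 10.6 CPM. Ndufc2 was at 116, 83, 87.6 and 73.4 CPM against 67.9, 62.7 and 58.2 CPM, without overlap, a log2 fold change of 0.53 ± 0.175 (adjusted p = 0.0399 by edgeR).

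The count of 63 calls became 66 without CD11cLO Sham 3 and KRM Sham 3, which held the most tubule markers of their groups, and 57 with the replicate number as a block. By limma on the log2 table it was 42, of which 38 were lower, against 17% of all genes, with a median of -0.44. It fell to 9, of which 7 of 80 were lower, in 1 fit over all 6 groups, which share an estimate of the spread and gave 13.2% of all genes as lower, a larger share than that of the members. It fell to 12 with a fold above 2 and an unadjusted p under 0.05 by edgeR, which called 12% of all genes lower. The proximal tubule markers summed to 1081, 980, 4168 and 1005 CPM in KRM Sham and to 293, 227 and 8095 CPM in CD11cLO Sham. The distal nephron markers summed to 13.8, 14, 238 and 14.8 CPM in KRM Sham and to 15.7, 6.58 and 692 CPM in CD11cLO Sham. Of the neutrophil markers all 6 tested were lower in KRM, with sums of 93.2 to 117 CPM against 1012 to 2534 CPM, and 2 of 3 tested B cell markers were higher, with sums of 397 to 507 CPM against 13.1 to 46.5 CPM. Of the 11 macrophage markers 8 were higher and 3 lower in KRM. The part of other cells in the chain's values was not tested.

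**Figure D3:**
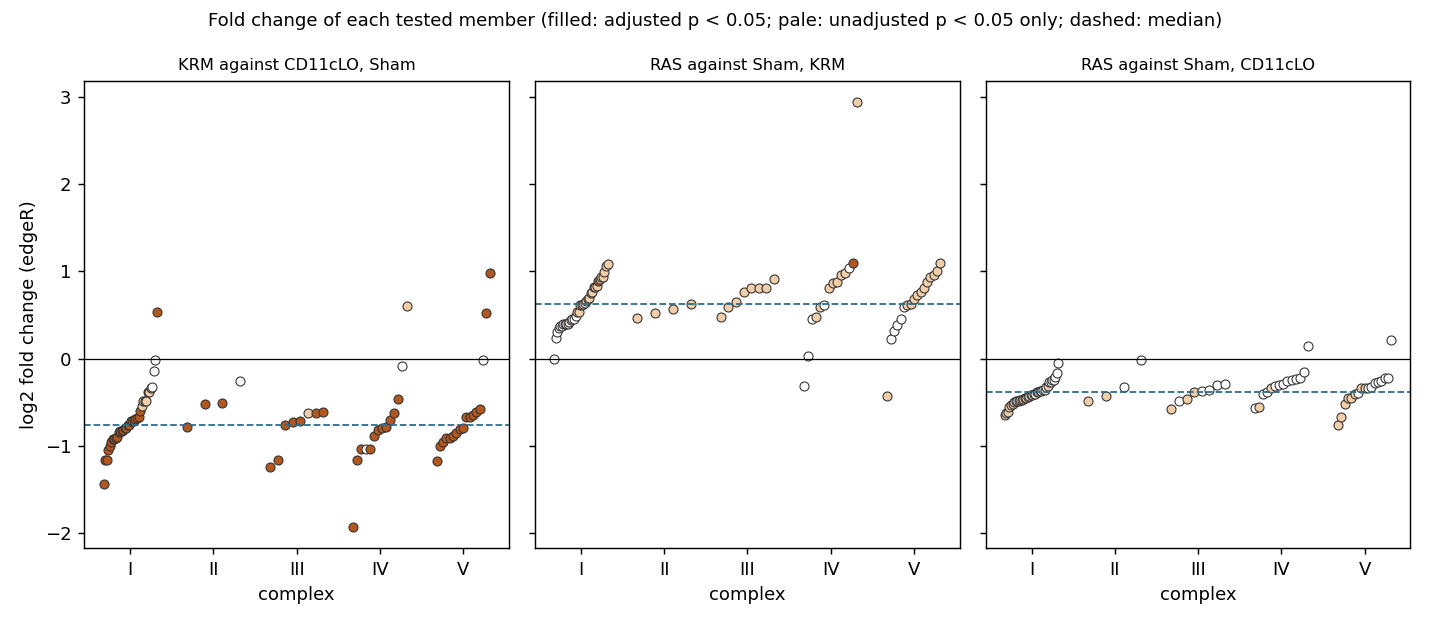
Log2 fold change (edgeR) of every tested member by complex in 3 comparisons. Points filled dark have an adjusted p under 0.05, pale points only an unadjusted p under 0.05, and the dashed line is the median of the members, at -0.76, 0.63 and -0.38 from left to right.

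The genes around the chain did not all follow it. Of 16 genes of the tricarboxylic acid cycle and pyruvate dehydrogenase, 9 were lower in KRM and 0 higher (median -0.56), with Mdh2, the mitochondrial malate dehydrogenase, at -1.12 ± 0.15 (adjusted p = 0.000672 by edgeR). Cycs, cytochrome c, which carries electrons from complex III to IV, was at 51.7, 46.7, 69 and 49.1 CPM in KRM Sham and 149, 134 and 192 CPM in CD11cLO Sham. Its log2 fold change of -1.52 ± 0.17 (adjusted p = 0.000251 by edgeR) exceeded that of every member but Cox6b2. Of a list of 12 subunits and carriers outside the symbol rule, which holds Cycs and also the assembly factor Ndufaf2, 7 were lower and 1 was higher (median -0.73). The assembly factors, Ndufaf2 again among them, were mixed: 2 higher and 1 lower of 13 for complex I, 1 and 1 of 10 for complexes II and III, 0 and 3 of 19 for complex IV and 1 and 0 of 3 for complex V. Nubpl, an iron-sulfur carrier for complex I, was higher by 1.33 ± 0.32, and 2900010M23Rik, the older name of Uqcc2, which assists complex III, was lower by -1.07 ± 0.23, both past the threshold. Of 15 regulators of mitochondrial biogenesis and mtDNA upkeep, 4 were higher and 0 lower in KRM, with Tfb1m, a methyltransferase of mitochondrial ribosomal RNA, at 1.15 and Polg2, a subunit of the mtDNA polymerase, at 1.10. Over all genes 19.5% were called higher and 22.3% lower, so that the counts of assembly factors and regulators are not read as a difference of these lists.

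The 13 mtDNA-encoded subunits gave 0 calls in either direction by edgeR, 0 of them at an unadjusted p under 0.05, and a median of -0.49. Their sum was 10777, 8658, 14115 and 8811 CPM in KRM Sham and 11534, 10228 and 22584 CPM in CD11cLO Sham, and these ranges overlapped.

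Against CD11cHI macrophages in Sham kidneys, the 78 tested members had a median of -1.29 log2 units in KRM, with 0 calls by edgeR at an adjusted p under 0.05, 22 by DESeq2, all lower, where it called 8.57% of all genes lower, and 0 by limma on the log2 table. At an unadjusted p under 0.05, 59 members were lower and 0 were higher, where 15% of all genes were lower and 9.46% higher. After adjustment edgeR called 5.12% of all genes. Blocking on the replicate number, as if it paired the Sham libraries, took the 59 to 17, against 9.57% of all genes, and the median to -0.90. The count was 29 without KRM Sham 1, 16 without KRM Sham 2, 35 without KRM Sham 3, 16 without KRM Sham 4 and 21 without CD11cHI Sham 3, where, in this order, 13.1%, 9.7%, 12.8%, 10.4% and 16.8% of all genes were lower. Cox5a was at 145, 88.9 and 405 CPM in CD11cHI Sham against 57.2 to 83.4 CPM in KRM Sham, a log2 fold change of -1.70 ± 0.50 (adjusted p = 0.102 by edgeR). These groups did not overlap, and 20 members in all lay below CD11cHI Sham in every KRM library, against 11.7% of all genes. The size of the difference rested on CD11cHI Sham 3: without it the median was -0.32, with 3 calls, all lower, where 9.29% of all genes were called lower. With the Sham libraries numbered 3 left out of both groups it was -0.42, with 6 calls, where 8.55% of all genes were called lower. Both counts were near or below the share over all genes. Of these libraries CD11cHI Sham 3 held the most proximal and distal markers. By edgeR 2 of 5 neutrophil, 1 of 1 T and NK cell and 1 of 6 endothelial markers were called lower in KRM, and 0 of these higher. The 13 mtDNA-encoded subunits gave 0 calls, with all 13 lower at an unadjusted p under 0.05 (median -2.83). The part of these cells in the result was not tested.

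Between CD11cHI and CD11cLO in Sham kidneys, edgeR gave 0 calls among 79 members, where 1.52% of all genes were called, and 0 at an unadjusted p under 0.05, where 17.7% of all genes passed. DESeq2 and limma also gave 0, and the median was 0.65. CD11cHI Sham 1 and 2 lay below all CD11cLO Sham libraries in the summed level and CD11cHI Sham 3 above them. Without CD11cHI Sham 3 the median turned to -0.39, with 0 calls and 24 members lower at an unadjusted p under 0.05, against 11.6% of all genes. With the Sham libraries numbered 3 left out of both groups, 20 were lower, against 15.1% of all genes. Blocking on the replicate number gave a median of 0.30.

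The same populations were compared in RAS kidneys. KRM against CD11cLO gave a median of 0.29 over 79 members, with 2 higher and 0 lower by edgeR, where 3.28% of all genes were called higher and 5.89% lower. These were Ndufa5, at 33.3, 71.5 and 50.2 CPM in KRM RAS and 16.6, 18.5, 26.5 and 18.9 CPM in CD11cLO RAS (log2 fold change 1.35 ± 0.285, adjusted p = 0.0366 by edgeR), and Atp5sl, at 28.5, 29 and 24.5 CPM against 17.5, 12.2, 16.8 and 16.2 CPM (0.79 ± 0.19, adjusted p = 0.0463 by edgeR). In both, every KRM RAS library lay above every CD11cLO RAS library. Ndufa5 was at 1.55 ± 0.244 without KRM RAS 1 (adjusted p = 0.0125 by edgeR), and Atp5sl then stood at 0.73 ± 0.22 (adjusted p = 0.0538 by edgeR). The other members overlapped for the most part: 4 members were without overlap, all higher, against 14.3% of all genes. The median was 0.49 without KRM RAS 1, with 18 calls, all higher, where 12.6% of all genes were called higher, and 48 of 80 members were then without overlap, against 32.9% of all genes. KRM RAS 2 and 3, then left in the group, were the close pair named above. KRM RAS 1 alone against CD11cLO RAS had a median of -0.29, a value without a test. Without KRM RAS 2 or 3 the count was 0, as it was over all genes. Without CD11cLO RAS 1, 2 or 4 it was also 0, where 0.98%, 0.0231% and 0.054% of all genes were called higher. Of 14 proximal tubule markers 3 were called higher in KRM RAS, and 12 lay above CD11cLO RAS in every library. Of 11 distal nephron markers 2 were called higher, and all 11 were higher at an unadjusted p under 0.05 (median 4.72). T and NK cell markers were higher in 2 of 9, and all 6 neutrophil markers were lower. Without KRM RAS 1, 10 of 12 distal nephron, 2 of 14 proximal tubule, 2 of 8 stromal and 2 of 9 T and NK cell markers were called higher. The 6 neutrophil markers were again called lower. The part of these cells in the result was not tested.

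KRM against CD11cHI in RAS kidneys gave 0 calls by edgeR among 78 members (median -0.37), with 1 higher and 4 lower at an unadjusted p under 0.05, 5 calls by DESeq2, 2 higher and 3 lower, where it called 11.3% and 8.97% of all genes, and 0 by limma. Over all genes 9.23% were called, and 14.6% were higher and 15.3% lower at the unadjusted threshold. Cox6b2 had the lowest adjusted p, 0.0693 by edgeR, at 0.989, 2.21 and 2.12 CPM in KRM RAS against 2.28, 9.01, 10 and 9.59 CPM in CD11cHI RAS. All KRM RAS values lay below those of CD11cHI RAS, and CD11cHI RAS 1 was close to them. Its log2 fold change was -1.92 ± 0.701 without KRM RAS 1 (adjusted p = 0.0938 by edgeR). Without CD11cHI RAS 1 edgeR called 4 members, all lower, where 9.52% of all genes were called lower, and without KRM RAS 1 it called 2, both higher, where 12.8% of all genes were called higher. At an unadjusted p under 0.05, 3 members were higher and 1 lower without KRM RAS 1, against 19.4% and 15.3% of all genes. The median turned with the table: limma on the log2 values had 0.28, and 0.41 without KRM RAS 1, with 9 calls, all higher, where 8.94% of all genes were called higher. Of the distal nephron markers 6 of 11 were called higher in KRM RAS, of the proximal tubule markers 3 of 14 and of the endothelial markers 1 of 10, and 1 of 11 macrophage markers was called lower. Without KRM RAS 1, 12 of 12 distal nephron, 3 of 14 proximal tubule, 4 of 10 endothelial and 4 of 8 stromal markers were called higher. In that setting 3 of 10 T and NK cell, 1 of 6 neutrophil and 1 of 11 macrophage markers were called lower. The part of these cells in the result was not tested.

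CD11cHI against CD11cLO in RAS kidneys gave 4 members higher and 0 lower by edgeR (median 0.65 over 78 members, 41 higher at an unadjusted p under 0.05), where 5.15% of all genes were called higher and 3.12% lower, and 14.6% were higher at the unadjusted threshold. In 7 members every CD11cHI RAS library lay above every CD11cLO RAS library, against 9.07% of all genes. Atp5g2 was at 61, 157, 123 and 118 CPM in CD11cHI RAS and at 44.1, 52.5, 50.1 and 40.8 CPM in CD11cLO RAS, without overlap (log2 fold change 1.34 ± 0.29, adjusted p = 0.0244 by edgeR). Ndufa6, Ndufa5 and Ndufa12, accessory subunits of complex I, differed by 1.23, 1.13 and 0.92. Without CD11cHI RAS 1, the library with the lowest chain sum of its group, 41 members were called higher, where 10% of all genes were. The group then held the close pair CD11cHI RAS 3 and 4 beside CD11cHI RAS 2. The count was 0 without any of CD11cHI RAS 2, 3 and 4 or of CD11cLO RAS 1, 2 and 4, where 1.57% to 3.15% of all genes were called higher. The number higher at the unadjusted threshold was 19 without CD11cHI RAS 2, 25 without CD11cLO RAS 1, 24 without CD11cLO RAS 3, 17 without CD11cLO RAS 4 and 27 in 1 fit over all 6 groups, where 12% to 15.2% of all genes were higher. The ribosomal protein genes moved with this difference, with 12575, 36725, 25685 and 24236 CPM in CD11cHI RAS and 9005 to 12184 CPM in CD11cLO RAS, and their part in it was not tested. Of 8 tested T and NK cell markers 6 were higher in CD11cHI RAS, with sums of 67.8 to 269 CPM against 15.5 to 37.2 CPM. Of 6 neutrophil markers 5 were lower, and all 6 were without overlap.

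The effect of stenosis was then examined within each population, which asks how the chain responds to chronic ischemia. In KRM, 53 members were higher in RAS and 1 was lower at an unadjusted p under 0.05, against 21% and 13% of all genes, and the median log2 fold change was 0.63 where that of all genes was 0.02. The 53 became 30 without KRM Sham 2, 32 without KRM Sham 4, 28 without KRM RAS 3, 7 without KRM RAS 2 and 9 in 1 fit over all 6 groups, where 13.4% to 17.2% of all genes were higher. It was 70 of 80 without KRM RAS 1, against 31.2% of all genes. After adjustment edgeR called 2 of 79 members, both higher, where 7.77% of all genes were called higher. In 2 members, Cox5a and Ndufa1, every RAS library lay above every Sham library, and in 1, Atp5sl, below, against 12.2% and 14.3% of all genes. Without KRM RAS 1 this held for 69 of 80 members above and 2 below, against 36.9% and 29.4% of all genes. Cox5a rose from 71.4, 58.3, 83.4 and 57.2 CPM in KRM Sham to 88.7, 195 and 145 CPM in KRM RAS. All RAS libraries were above all Sham libraries, by 1.10 ± 0.26 log2 units (adjusted p = 0.0422 by edgeR), and by 1.29 ± 0.186 without KRM RAS 1 (adjusted p = 0.00109 by edgeR). Ndufa10, an accessory subunit of complex I, was at 39.1, 40.9, 59 and 39.8 CPM in KRM Sham and at 57.3, 101 and 86.3 CPM in KRM RAS, where library 1 lay below KRM Sham 3 (0.89 ± 0.23, adjusted p = 0.0496 by edgeR, and 1.03 ± 0.187 without KRM RAS 1).

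KRM RAS 1 and the other KRM RAS libraries stood apart for nearly all members. Atp5b was at 610, 1481 and 1181 CPM in the 3 KRM RAS libraries, in that order, against 552, 473, 702 and 477 CPM in KRM Sham. KRM RAS 1 was thus within the Sham range and the others were above it. Over 78 members the ratio of KRM RAS 2 and 3 to KRM RAS 1 had a median of 1.72 and ran from 0.799 to 8.5. Its top was set by Cox7a1, at 0.791, 7.46 and 5.99 CPM. The median by complex was 1.63 for I, 1.60 for II, 1.85 for III, 1.91 for IV and 1.82 for V.

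The call count in KRM changed with single libraries, and that over all genes changed with it. Without KRM RAS 1 it was 65 (64 higher), with 28.1% of all genes called higher. The group then held only KRM RAS 2 and 3, the close pair, and the 65 rest in part on the spread of that pair. Without KRM RAS 2, KRM RAS 3, KRM Sham 1, KRM Sham 2 or KRM Sham 4 the call count was 0, where 0.177% to 0.251% of all genes were called higher. KRM RAS 1 alone against KRM Sham had a median of 0.08 and a log2 fold change of 0.40 for Cox5a, values without a test. DESeq2 called 39 members (38 higher), where it called 19.2% of all genes higher. On the log2 values limma called 31, all higher, with the doubtful KRM RAS 1 column, where 7.88% of all genes were called higher. It called 72 (71 higher) without that column, where 20.3% of all genes were called higher and 32.1% lower. In the same comparison the distal nephron markers rose in 6 of 9 tested, the stromal markers in 4 of 6, the endothelial markers in 4 of 8, the erythroid markers in 3 of 3 and the T and NK cell markers in 8 of 9, where the T and NK cell sum was highest, 362 CPM, in KRM RAS 1. The distal nephron and stromal sums were highest in KRM RAS 2 and 3. Without KRM RAS 1, 12 of 12 distal nephron, 8 of 8 stromal and 9 of 10 endothelial markers were called higher. So were 3 of 3 erythroid and 9 of 9 T and NK cell markers, and 0 of 14 proximal tubule markers. Of the 11 macrophage markers 2 were called lower and 1 higher, with 10 of the log2 fold changes negative (median -0.58) and 6 markers below every Sham library, and without KRM RAS 1 there were 9 lower and 1 higher. Of 12 dissociation stress genes 3 were called lower, Jun, Hspa1a and Hspa1b. The part of these cells and genes in the chain's values was not tested.

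The mtDNA-encoded subunits moved with these libraries too. They summed to 8640, 34342 and 38936 CPM in KRM RAS against 8658 to 14115 CPM in KRM Sham, with a median log2 fold change of 1.36 and 0 calls by edgeR, 12 of 13 being higher at an unadjusted p under 0.05. The median was 1.71 without KRM RAS 1, with 12 calls, all higher. KRM RAS 1 lay just below the lowest Sham library. mt-Co1, the catalytic core of complex IV, was at 1858, 7453 and 8532 CPM in KRM RAS and 2568, 2139, 2962 and 2075 CPM in KRM Sham. Of the 16 cycle genes 1 rose, Idh3a, a subunit of isocitrate dehydrogenase, at 47.4, 132 and 112 CPM in KRM RAS against 40.2, 42.7, 45 and 42 CPM in KRM Sham. Cycs also rose, at 76.6, 182 and 131 CPM in KRM RAS. Both were above every Sham library in all 3 RAS libraries. Both also passed without KRM RAS 1 (adjusted p = 6.28e-05 for Idh3a and 0.000662 for Cycs by edgeR), where 13 of the 16 cycle genes were called higher. None of the 45 tested assembly factors was called, and without KRM RAS 1 there were 3 higher and 1 lower of 13 for complex I, 1 and 0 of 10 for complexes II and III, 2 and 2 of 19 for complex IV and 0 of 3 for complex V, where 28.1% of all genes were called higher and 22.1% lower.

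Atp5sl again parted from the subunits: its KRM RAS values of 28.5, 29 and 24.5 CPM were below all KRM Sham values, at -0.43 ± 0.12 log2 units, and did not pass adjustment (adjusted p = 0.0628 by edgeR). It stood at -0.52 ± 0.132 without KRM RAS 1 (adjusted p = 0.0129 by edgeR).

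**Figure D4:**
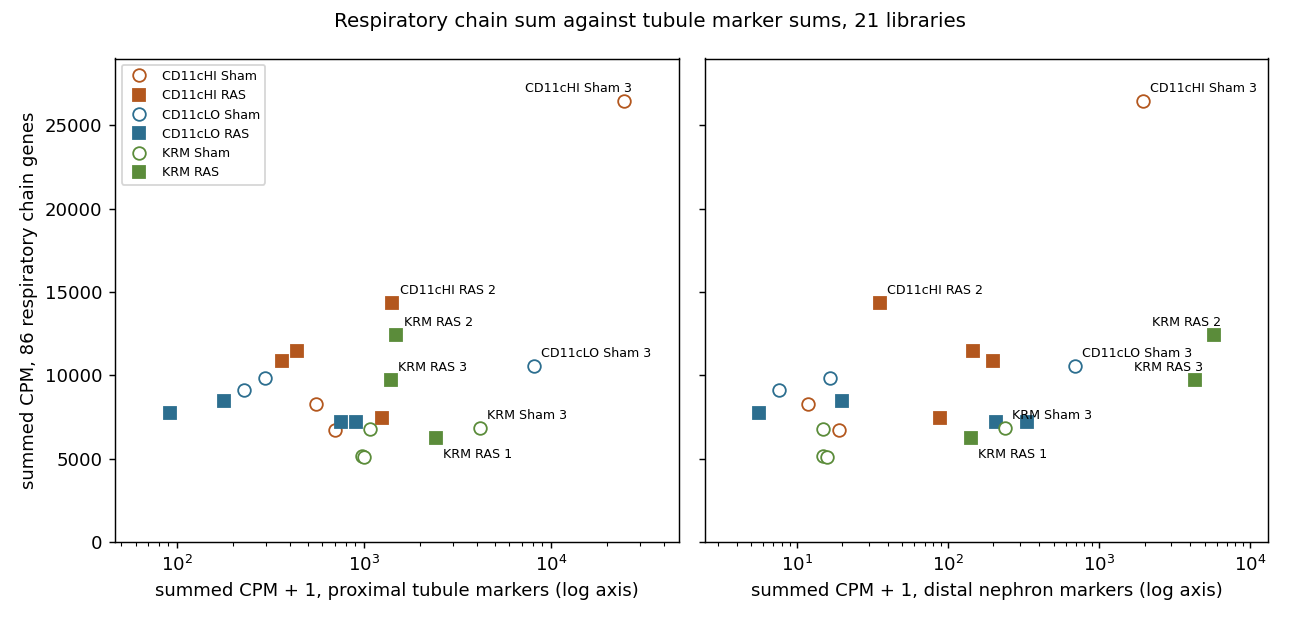
Summed CPM of the 86 chain genes against the summed CPM of 14 proximal tubule markers (left) and 12 distal nephron markers (right), each plus 1 on a log axis, for the 21 libraries. Open circles are Sham and filled squares RAS, coloured by population. CD11cHI Sham 3 was highest in both the chain and the proximal markers, and KRM RAS 2 and 3 were highest in the distal markers. CD11cHI RAS 2 had a high chain sum at 34.4 CPM of distal and 1417 CPM of proximal markers, the latter the highest of its group.

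In CD11cLO macrophages the chain was lower in RAS in the same sense across genes, but below the threshold. By edgeR 0 of 79 members were called, as were 0 of all genes, and DESeq2 called 1 and limma 0. At an unadjusted p under 0.05, 36 members were lower and 0 higher, against 3.37% of all genes lower. The 36 became 17 without CD11cLO Sham 1, 16 without CD11cLO Sham 3, 19 without CD11cLO RAS 4 and 1 in 1 fit over all 6 groups, where 1.67% to 3.25% of all genes were lower. The median was -0.38 where that of all genes was -0.02. In 38 members every RAS library lay below every Sham library, which held for 4.19% of all genes. Cox6c was at 176, 174 and 168 CPM in CD11cLO Sham and at 127, 130, 111 and 102 CPM in CD11cLO RAS, well apart (log2 fold change -0.55 ± 0.13, unadjusted p = 0.00307, adjusted p = 0.553 by edgeR). Ndufb8, an accessory subunit of complex I, was at 173, 162 and 167 CPM against 120, 132, 110 and 95.1 CPM (-0.55 ± 0.14, unadjusted p = 0.00504, adjusted p = 0.553 by edgeR). Sdha was at 254, 274 and 346 CPM against 260, 256, 302 and 333 CPM, so that its groups overlapped (-0.02 ± 0.18). The mtDNA-encoded sum overlapped as well, at 6065, 12053, 17912 and 17542 CPM in CD11cLO RAS. The proximal markers were highest in CD11cLO Sham 3, at 8095 CPM, and CD11cLO RAS held 90.5 to 911 CPM. Of these 14 markers 13 had negative log2 fold changes, with a median of -2.59, and 7 were lower at an unadjusted p under 0.05. The T and NK cell sum was 4.62, 7.87 and 10.1 CPM in CD11cLO Sham and 15.5 to 37.2 CPM in CD11cLO RAS, with 3 of 6 tested markers higher at an unadjusted p under 0.05 and 4 without overlap. Of 6 tested neutrophil markers 4 were higher at the unadjusted threshold. All 8 endothelial and all 8 stromal markers had positive log2 fold changes, with medians of 2.60 and 1.87, and 0 of either passed the unadjusted threshold. The part of these cells in the chain's values was not tested.

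In CD11cHI macrophages RAS against Sham gave 0 calls by edgeR among 78 members, 0 at an unadjusted p under 0.05 and 0 by DESeq2 and limma (median -0.36), as 0 of all genes were called and 9.79% passed the unadjusted threshold. CD11cHI Sham 3 stood far above the others: Atp5b was at 720, 623 and 2626 CPM in CD11cHI Sham and at 696, 786, 1021 and 989 CPM in CD11cHI RAS. Without that library the median turned to 0.61, still with 0 calls.

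The difference between the responses was tested as an interaction. The response of KRM minus that of CD11cLO had a median of 0.97 log2 units over 79 members, with 0 calls by edgeR at an adjusted p under 0.05 (0.223% of all genes were called higher), 50 by DESeq2 (6.33% of all genes) and 42 by limma (4.14% of all genes), which gave 72 without KRM RAS 1 (12.2% of all genes), all of them higher. At an unadjusted p under 0.05, 69 members were higher and 0 were lower, where 14.1% of all genes were higher. Atp5o had the lowest adjusted p, 0.067 by edgeR, at 1.34 ± 0.30, and Ndufa1 was at 1.41 ± 0.34 (adjusted p = 0.0755 by edgeR). Without KRM RAS 1 the count was 65, all higher, where 8.23% of all genes were called higher, and 73 were higher at the unadjusted threshold, against 17.3% of all genes. With KRM RAS 1 as the sole library of its group the median was 0.45, a value without a test. In the same test all 12 distal nephron markers had positive values (median 5.86, 8 at an unadjusted p under 0.05), 13 of 14 proximal tubule markers were positive (median 2.34), 1 of 9 T and NK cell markers was called higher, and 10 of 11 macrophage markers were negative (median -1.06, 6 lower at the unadjusted threshold). Without KRM RAS 1, 6 of 12 distal nephron markers were called higher and 5 of 11 macrophage markers lower. Their part in the result was not tested. The response of KRM minus that of CD11cHI gave 0 calls among 80 members by edgeR, 10 higher and 0 lower at an unadjusted p under 0.05, where 16.8% of all genes were higher, 2 calls by DESeq2, where it called 7.76% of all genes higher, and 0 by limma (median 0.94, and 0.04 without CD11cHI Sham 3). Without KRM RAS 1 edgeR called 2, both higher, where 6.56% of all genes were called higher. At the unadjusted threshold 18 were then higher and 1 lower, against 18.9% and 7.79% of all genes. In that setting 10 of 12 distal nephron and 6 of 10 endothelial markers were called higher. The response of CD11cHI minus that of CD11cLO gave 0 calls by edgeR, 0 at the unadjusted threshold, where 6.65% of all genes passed, and 0 by DESeq2 and limma (median 0.13, and 0.98 without CD11cHI Sham 3). In these last 2 tests 0 of all genes passed adjustment, and all 3 share groups with the comparisons above.

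The study selected genes by a fold above 2 and a p under 0.05 from DESeq2, without stating whether the p was adjusted. A fold above 2 with an unadjusted p under 0.05 from edgeR weighs size over spread and gave other counts. It took 54 members as lower in KRM than in CD11cHI in Sham kidneys, against 9.05% of all genes, and 3 in RAS kidneys, against 9.03%. It took 11 as higher in CD11cHI than in CD11cLO in RAS kidneys, against 8.83%, and 6 as higher in RAS than in Sham in KRM, against 13.6%. Of the responses it took 35 as higher in KRM than in CD11cLO, against 11.2%, and 10 as higher in KRM than in CD11cHI, against 16%. Without KRM RAS 1 it took 27 as higher in RAS than in Sham in KRM, against 22.5%, 45 as higher in the response of KRM than of CD11cLO, against 14%, 18 as higher in that of KRM than of CD11cHI, against 18%, and, in KRM than in CD11cHI in RAS kidneys, 1 as lower, against 10.5%, and 2 as higher, against 17.5%. Between KRM and CD11cLO in RAS kidneys it took 2 as higher, against 12.7%, and 4 without KRM RAS 1, against 17.5%.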

How the data were processed

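The 21 libraries were made with SMART-Seq v4 and Nextera XT and sequenced paired-end. The authors aligned the reads with OSA to mm10, with gene models of Ensembl, and deposited estimated counts per gene, of which 9.7 to 14.2% per library were not whole. These were rounded, lines with the same symbol were summed, and 1 pseudogene symbol was left out. The deposited log2 table holds quantile-normalised log2(TPM + 1) by the authors and served for levels per length and for limma.

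Each comparison was fitted on its own groups with edgeR 4.0.16 in R 4.3.3 (quasi-likelihood test, TMM, genes kept by filterByExpr at its defaults, 10 counts and 15 in total), and p-values were adjusted by Benjamini-Hochberg over all genes tested, with a threshold of 0.05. They measure only the spread between these libraries, which may be technical. The ± values of fold changes are standard errors. DESeq2 1.42.0, limma 3.58.1, other scalings and filters, 1 fit over all groups, the replicate block and leaving out libraries were alternatives. The scripts were tested on simulated counts.

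Replicate numbers come from the sample titles. Deviations from the group means correlated between same-numbered Sham libraries of different populations at 0.202 to 0.644 over 14533 genes, so that the numbers were taken to pair these libraries. With the block, KRM against CD11cLO in Sham gave 57 calls, and both other Sham comparisons gave 0.

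Members and gene lists were chosen with earlier results of these data known. Named genes were core subunits, paralog isoforms, the 5 largest called changes in each direction and members called against the main direction, and of the other lists the mtDNA-encoded subunits and the 3 largest called changes. Cox4nb and Atp5l2 fall outside this rule and were named after their values were seen. No column of the authors' own comparisons was used. A member gene was left out of the text and of the plot of members, and its values are not reported here.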

Additional observations from a re-analysis of the deposited data

Results flagged for a closer look

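In groups of 4 libraries, a single library lay far from the other 3 by Dixon's criterion in 9 of 147 groups of members and sums examined, where chance gives about 5%. In KRM Sham, Cox6b2 was at 1.66 CPM in library 1 against 0.607 to 0.653 CPM, Atp5g2 at 70.6 CPM in library 1 against 47.1 to 48 CPM, Ndufa10 at 59 CPM in library 3 against 39.1 to 40.9 CPM, and Atp5sl at 34.4 CPM in library 4 against 38.4 to 38.7 CPM. In CD11cHI RAS, library 1 was low for Uqcrb, the ubiquinone-binding subunit of complex III, at 124 CPM against 187 to 192 CPM, and for Cox6b2 at 2.28 CPM against 9.01 to 10 CPM. In CD11cLO RAS, library 2 was high for Cox6a1 at 233 CPM against 164 to 174 CPM and for Atp5l at 131 CPM against 88.4 to 94 CPM, and library 3 was low for Cox6b2 at 0.783 CPM against 2.61 to 2.91 CPM.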

How the results depend on the processing

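Counts of members called in Sham kidneys kept their direction for KRM against CD11cLO, at 48 to 65 of 79 when leaving out each library, 42 by limma, 12 with a fold above 2 and an unadjusted p under 0.05, and 9 in 1 fit over all 6 groups. For KRM against CD11cHI they were 0 to 3 when leaving out each library, 54 by the fold rule, 22 by DESeq2, 17 in the fit over all groups, 1 with the most abundant line of each symbol and 6 without the Sham libraries numbered 3. The shares of all genes beside the 54, the 22 and the 6 are given above. Those beside the 17 and the 1 are not given, so that these counts are not read as results about the members.

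In RAS kidneys, KRM against CD11cLO gave 0 to 18 when leaving out each library, 4 with total library size, 1 without a filter, 4 with at least 10 counts in every library, 4 by DESeq2, 14 and 8 by limma with pseudocounts 1 and 0.1, 1 in the fit over all groups, 0 without KRM RAS 2 and 3 and 54 by limma without KRM RAS 1. KRM against CD11cHI gave 0 to 4 when leaving out each library, 3 by the fold rule, 5 by DESeq2, 4 in the fit over all groups, all lower, and 9 by limma without KRM RAS 1, all higher. The share of all genes in that fit over all groups is not given, so that its count is not read as a result about the members. CD11cHI against CD11cLO gave 0 to 41 when leaving out each library, 11 by the fold rule, 12 by DESeq2 and 7 and 7 by limma.

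RAS against Sham in KRM gave 0 to 65 when leaving out each library, 6 by the fold rule, 4 with total library size, 39 by DESeq2, 31 and 31 by limma, 0 in the fit over all groups, 0 without KRM RAS 2 and 3, 0 with these and the Sham libraries numbered 3 left out at once, and 72 by limma without KRM RAS 1. In CD11cLO DESeq2 gave 1. KRM minus CD11cLO gave 0 to 65 when leaving out each library, 35 by the fold rule, 50 by DESeq2, 42 and 40 by limma and 72 by limma without KRM RAS 1. KRM minus CD11cHI gave 0 to 2 when leaving out each library, 10 by the fold rule and 2 by DESeq2. The settings without KRM RAS 2 and 3, and limma without KRM RAS 1, were chosen after seeing the data. The former leave KRM RAS 1 alone in its group, with a spread assumed to be that of the other groups, and their counts of 0 say nothing about the other libraries. The share of all genes called higher moved with these settings as well, from 0.177% to 28.1% for RAS against Sham in KRM, from 0% to 12.7% for KRM against CD11cLO in RAS, from 1.57% to 10% for CD11cHI against CD11cLO in RAS and from 0% to 12.2% for KRM minus CD11cLO, so that a count of members is to be read against the share in its own setting. The sign turned for Atp5g2 in KRM against CD11cLO in Sham, at 0.62 and 0.63 by limma with pseudocounts 1 and 0.1, and for Uqcrb in KRM against CD11cHI in RAS, at 0.86 by limma without KRM RAS 1. The cause of these changes was not tested.

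With the replicate number as a block, RAS against Sham in KRM gave 0 calls and KRM against CD11cLO in RAS gave 1. Same-numbered libraries correlated at 0.057 to 0.507 between populations in RAS kidneys and at -0.199 to 0.325 between RAS and Sham. In each of these comparisons at least 1 pair was under 0.1, so that the numbers were not taken to pair these libraries.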
